A study of Mus musculus with 4 samples.

Results

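The RNAs described here are structural noncoding RNAs that stay visible after rRNA depletion: *Rn45s*, *Rpph1*, *Rmrp*, *Rn7sk* and *Terc*. They were chosen by name because they take a large or recognisable share of the counts, so their levels are given as a description without a test. Of the 5 RNAs, 4 have a row among the 24054 genes of the count tables, and these 4 are among the 13267 genes that passed the filter on low counts. *Rn7sk*, the 7SK RNA that holds the elongation factor P-TEFb in an inactive particle, was not analysed here.

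These RNAs work as parts of ribonucleoprotein particles. *Rn45s* is the ribosomal RNA precursor, which RNA polymerase I transcribes in the nucleolus and which is cut into the mature ribosomal RNAs. *Rpph1* is the RNA of RNase P, which removes the leader of transfer RNA precursors, and *Rmrp* is the RNA of the related RNase MRP, which cuts the ribosomal RNA precursor. Both are transcribed by RNA polymerase III and share most of their protein subunits. *Terc* is the template RNA of telomerase, which is transcribed by RNA polymerase II and which keeps telomeres long in embryonic stem (ES) cells.

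Total RNA was sequenced from 1 culture of the wild-type mouse ES cell line wt26 at passage 46 and from the Morc3 rescue clones 3C, 3D and 3M, 1 library each. Each rescue clone was isolated from a single Morc3 ko clone of wt26 after PiggyBac transfection with the full-length Morc3 cDNA and puromycin selection, so the clones share a ko background and wild type did not pass through cloning or selection. All cells were grown feeder-free on gelatin in serum and LIF. Ribosomal RNA was depleted with the NEBNext kit and the libraries were directional. *Morc3* itself had 8830, 7225 and 9437 counts in clones 3C, 3D and 3M and 3065 in wild type. The gene counts lay between 13620914 and 18789457 per library. Unmapped read pairs were between 21.0% and 23.0% in the clones and 14.5% in wild type, and read pairs on genes were between 45.1% and 47.0% and 52.7%. The 8 ES cell markers summed to between 3958 and 4224 CPM (counts per 1000000, scaled by TMM) in all 4 libraries. The sum does not show single markers: *Nanog* had 468, 358 and 481 CPM in clones 3C, 3D and 3M and 300 in wild type. In all 3 clones, 3 of the 8 lay above wild type and 1 below it, against 28.7% and 28.4% of all genes tested. The fibroblast markers *Col3a1*, *Dcn* and *Lum* had 0 counts in every library, and the 8 fibroblast markers summed to between 25.6 and 50.3 CPM, most of it *Thy1*. The 6 primitive endoderm markers summed to between 5.64 and 10.7 CPM, and the 6 trophoblast markers to between 54.7 and 86.0 CPM, most of it *Tfap2c*. The part of these differences in the results below was not tested.

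The sequences show what the reads of *Rmrp* and *Rpph1* could and could not be told apart from. *Rmrp* lies at chr4:43492785-43493059 and *Rpph1* at chr14:50807447-50807771 of GRCm38, both on the minus strand, with lengths of 275 and 325 bases in RefSeq. The longest exact runs that the GENCODE transcripts of the pair share are 2 runs of 9 bases, shown in capitals in the 271 bases of the *Rmrp* transcript (chr4:43492788-43493058, minus strand), so no 50-base read can match both exactly.
Rmrp: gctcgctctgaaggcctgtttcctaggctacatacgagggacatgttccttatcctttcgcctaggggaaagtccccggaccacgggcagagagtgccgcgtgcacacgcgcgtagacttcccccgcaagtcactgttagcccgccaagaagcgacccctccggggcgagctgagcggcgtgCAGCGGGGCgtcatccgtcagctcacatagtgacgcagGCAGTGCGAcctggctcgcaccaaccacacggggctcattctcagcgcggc
*Rpph1* has 3 further copies in the count tables, *Rprl1*, *Rprl2* and *Rprl3*, which RefSeq also lists as RNase P RNA. Over 236 aligned bases, *Rpph1* was identical to *Rprl1* at 91.1%, to *Rprl2* at 93.2% and to *Rprl3* at 93.6%, and the longest exact run shared was 27, 32 and 37 bases. None of the 270 windows of 50 bases in *Rpph1* occurs in a copy. *Rpph1* holds a stretch of 21 bases in tandem, and the copies hold it once, with 1 mismatch in *Rprl3* and 2 in *Rprl1* and *Rprl2*. The stretch is in capitals within longer excerpts, which span chr14:50807505-50807626 (minus strand) for *Rpph1*, chr8:3803117-3803217 (minus strand) for *Rprl3* and chr3:22251515-22251615 (plus strand) for *Rprl2*.
Rpph1: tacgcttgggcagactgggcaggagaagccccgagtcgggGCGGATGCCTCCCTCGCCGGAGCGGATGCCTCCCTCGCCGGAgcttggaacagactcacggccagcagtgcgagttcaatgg
Rprl3: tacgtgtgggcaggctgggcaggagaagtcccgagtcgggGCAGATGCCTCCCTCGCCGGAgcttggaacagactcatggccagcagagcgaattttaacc
Rprl2: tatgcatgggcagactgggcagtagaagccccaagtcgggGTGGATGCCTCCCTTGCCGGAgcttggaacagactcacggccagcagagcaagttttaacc
*Terc* lies at chr3:96414437-96414833, on the minus strand, with 397 bases in RefSeq. The first 80 bases of its GENCODE transcript (chr3:96414780-96414859) hold, in capitals, the 7 bases that match the complement of the telomere repeat, and none of its windows of 50 bases occurs in a transcript of another gene.
Terc: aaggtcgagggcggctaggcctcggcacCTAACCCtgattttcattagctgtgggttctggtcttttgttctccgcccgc
*Rn45s* has no entry in the reference tables, so no position or sequence is given for it.

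*Rn45s* was the most abundant row in every library. It had 2162779 counts in clone 3C, 2345807 in 3D, 2273568 in 3M and 2892978 in wild type. These were 15.9%, 16.0% and 14.7% of the gene counts in the clones and 15.4% in wild type, so wild type lay inside the range of the clones. The exact binomial 95% interval for wild type was 15.38% to 15.41%. Like the others, it covers counting error only, as the reads carry no molecular identifiers. The mature ribosomal RNAs are cut from this precursor, so reads of mature RNA left after depletion may fall in this row. They cannot be told apart from reads of the precursor, and the share is not a measure of the precursor alone. How much of either was removed by depletion cannot be told from these counts.

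*Rpph1* was second to *Rn45s* in all 4 libraries. It had 97867, 112062 and 111444 counts in clones 3C, 3D and 3M and 122596 in wild type, which were 0.719%, 0.764% and 0.720% of the gene counts in the clones and 0.652% in wild type (95% interval 0.649% to 0.656%). All 3 clones were above wild type.

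*Rmrp* stood apart from the other RNAs in that its wild-type share was far above that of each clone. It had 26402 counts in clone 3C, 36022 in 3D, 38695 in 3M and 76903 in wild type. The shares were 0.194%, 0.246% and 0.250% in the clones and 0.409% in wild type (95% interval 0.406% to 0.412%). It was the 5th most abundant gene in wild type and the 14th, 13th and 11th in clones 3C, 3D and 3M. Clone 3C was the lowest library, and 3D and 3M lay close together.

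*Terc* was a gene of middle abundance, between position 3762 and 4344 in the order of counts. It had 704, 681 and 666 counts in clones 3C, 3D and 3M and 972 in wild type. Its shares were 0.0052%, 0.0046% and 0.0043% in the clones and 0.0052% in wild type (95% interval 0.0049% to 0.0055%). The interval of 3C, 0.0048% to 0.0056%, holds the wild-type share.

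**Figure D1:**
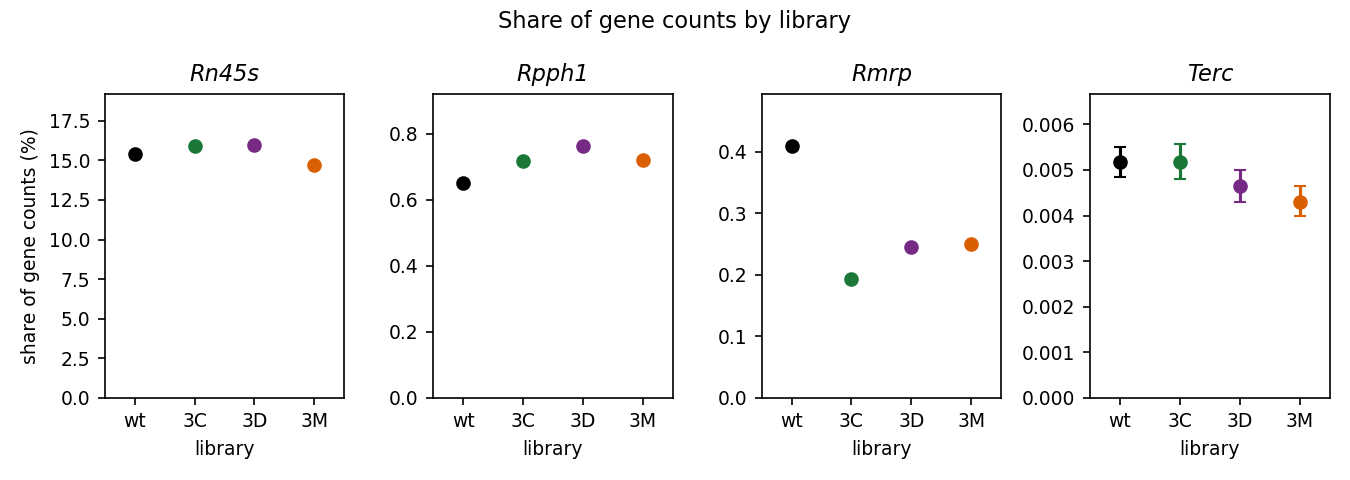
Share of the gene counts (%, vertical axis from 0, a separate scale for each RNA) in wild type (wt) and the rescue clones 3C, 3D and 3M. Points are single libraries and bars are exact binomial 95% intervals, which are smaller than the points for *Rn45s*, *Rpph1* and *Rmrp*. The clones lie between 0.194% and 0.250% for *Rmrp*, below the 0.409% of wild type.

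Per length, the RNAs kept the same order in every library. The clones had between 22134 and 23696 CPM per kb of *Rpph1*, and wild type had 19779. For *Rmrp* these values were 7122 to 9082 and 14663 CPM per kb. For *Terc* they were 108 to 132 and 128 CPM per kb, and no library of a lower RNA reached a library of a higher one. RNAs of this length give short library fragments, and the part of fragment size selection in these levels was not tested. Counts on the opposite strand were few. They were between 0.0964% and 0.149% of the counts on both strands for *Rn45s*, between 0.0245% and 0.0326% for *Rpph1* and between 0.411% and 0.452% for *Rmrp*, and *Terc* had at most 1 such count in a library. Over all genes, the opposite-strand column held between 1.26% and 1.31% as many counts.

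The rescue clones were compared with wild type. No Morc3 ko library is in this comparison, so whether an RNA changed in ko cells and returned was not tested. *Morc3* itself had a mean of 587 CPM in the clones and 161 CPM in wild type. The fit across all 13267 genes with edgeR's quasi-likelihood test called 1 gene, or 0.00754%, at a Benjamini-Hochberg adjusted p of 0.01, and 0 of the 4 structural RNAs. At an unadjusted p of 0.05, 786 genes (5.92%) were higher and 587 genes (4.42%) lower in the clones, and *Rpph1* was among the former and *Rmrp* among the latter. At the adjusted p of 0.01, *Morc3* itself, at a log2 difference of 1.87, was not called either. A gene that was not called may thus still differ. Wild type is 1 library, so only the clones give a spread, and nothing says that a second wild-type culture would vary as they do. In bulk cultures, fewer cells with an RNA and less of it per cell cannot be told apart.

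*Rmrp* had 1958, 2476 and 2498 CPM in clones 3C, 3D and 3M and 4032 CPM in wild type. The mean of the clones was 2311 ± 305.1 CPM (SD, n = 3), 0.573 times the wild-type level in the fit. The log2 difference was -0.80 (standard error 0.14, unadjusted p = 0.0014, adjusted p = 0.19 in edgeR's quasi-likelihood test). The clones taken singly differed from wild type by -1.04, -0.70 and -0.69. All 3 clones were thus at least 0.5 below wild type on the log2 scale, which held for 308 genes in all, or 2.32% of those tested. Of the 55 genes with a mean of at least 1000 CPM, *Rmrp* had the largest difference in size, followed by *Rplp0*, a ribosomal protein gene on chromosome 5, at 0.62, and *Supt16*, a histone chaperone gene on chromosome 14, at 0.33. This ranking was made after the values were seen. The call depended on the test and on the clones. DESeq2's Wald test gave *Rmrp* an adjusted p of 0.00035, among 65 called genes or 0.691% of the 9409 with an adjusted p. Without clone 3D, edgeR's adjusted p was 0.00021, among 420 called genes or 3.17%. It was 0.063 without 3C and 0.72 without 3M.

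*Rpph1* had 7260, 7701 and 7193 CPM in the clones and 6428 CPM in wild type. The clones had 7385 ± 276.1 CPM (SD, n = 3), 1.15 times the wild-type level. The log2 difference was 0.20 (standard error 0.06, unadjusted p = 0.017, adjusted p = 0.37 in edgeR's quasi-likelihood test). The clones singly were 0.18, 0.26 and 0.16 above wild type. Such an order, all 3 clones above wild type, was found for 28.7% of the genes tested, and the reverse order for 28.4%. *Rpph1* lies on chromosome 14, where the 446 tested genes had a median log2 difference of 0.36, and 346 of them were further above wild type than *Rpph1*. The chromosome medians of *Rmrp* and *Terc* were -0.027 over 794 genes of chromosome 4 and -0.012 over 557 genes of chromosome 3. For chromosome 5, which holds *Rplp0* and *Pop5*, the median was -0.021 over 804 genes. For chromosome 9, which holds *Taf1d*, it was 0.0081 over 729 genes.

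*Rn45s* and *Terc* differed by less than the spread between clones. *Rn45s* had 160432, 161213 and 146753 CPM in clones 3C, 3D and 3M and 151688 CPM in wild type, a log2 difference of 0.04 (standard error 0.07, adjusted p = 0.87 in edgeR's quasi-likelihood test). *Terc* had 52.2, 46.8 and 43.0 CPM in the clones and 51.0 CPM in wild type, a log2 difference of -0.11 (standard error 0.13, adjusted p = 0.80). In both, wild type lay within the range of the clones. Between clones, the coefficient of variation was 5.21% for *Rn45s*, 3.74% for *Rpph1*, 13.2% for *Rmrp* and 9.80% for *Terc*, against a median of 9.03% over all genes tested and 3.58% over the 55 most abundant.

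The counts of 1 RNA relative to another do not depend on the scaling of the libraries. Per 100 counts of *Rpph1* there were 27.0, 32.1 and 34.7 counts of *Rmrp* in clones 3C, 3D and 3M and 62.7 in wild type. Per 100 counts of *Rn45s* there were 4.53, 4.78 and 4.90 counts of *Rpph1* in the clones and 4.24 in wild type. Per 100 counts of *Rpph1* there were 0.719, 0.608 and 0.598 counts of *Terc* in the clones and 0.793 in wild type. The *Rmrp* ratio was thus far lower in each clone than in wild type, and the other ratios moved by less.

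**Figure D2:**
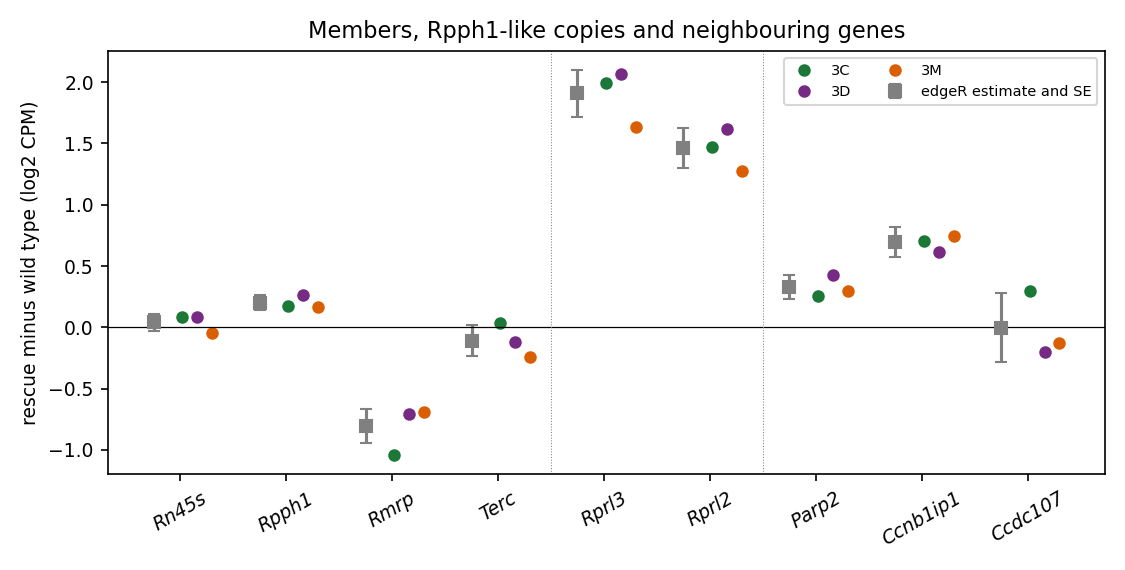
Rescue minus wild type in log2 CPM (vertical axis) for the structural RNAs (left), the *Rpph1*-like copies (middle) and the nearest genes of *Rpph1* and *Rmrp* (right). Grey squares and bars are edgeR's estimate and its standard error over the 3 clones, and coloured points are single clones. *Rmrp* is below 0 in all 3 clones, whereas *Rprl3* and *Rprl2* are more than 1 above it.

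**Figure D3:**
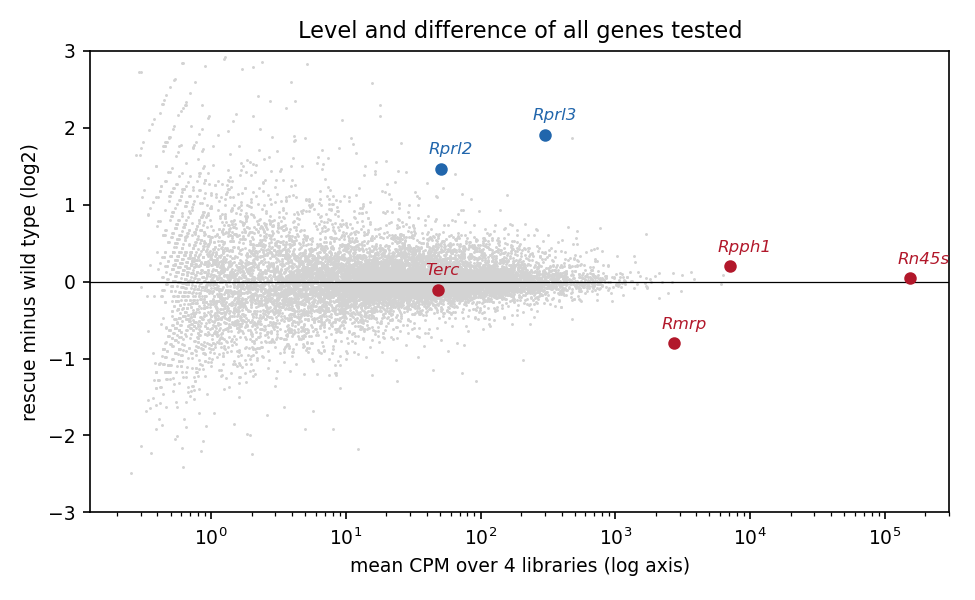
Mean CPM over the 4 libraries (horizontal log axis) and rescue minus wild type (vertical axis, edgeR log2 difference) of 13254 genes, each a grey point. A further 13 genes lie beyond 3 in size and are not drawn. The structural RNAs are in red and the *Rpph1*-like copies in blue, and *Rmrp* at -0.80 is the gene farthest from 0 among those of at least 1000 CPM.

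The share of *Rpph1* depended on what it was divided by. The ratio of the clones' share to that of wild type over gene counts was 1.10 for 3C, 1.17 for 3D and 1.10 for 3M, and over uniquely mapped read pairs it was 1.04, 1.12 and 1.07 in this order. Over all read pairs it was 0.946, 1.003 and 0.985. The direction for *Rpph1* therefore turned with the denominator in 3C and 3M, and the unmapped pairs, which were more frequent in the clones, are part of the last one. For *Rmrp* the ratio was 0.474, 0.600 and 0.611 over gene counts and 0.407, 0.514 and 0.545 over all read pairs, below 1 in each case. For *Rn45s* it was 1.03, 1.04 and 0.954 over gene counts and 0.886, 0.890 and 0.851 over all read pairs. For *Terc* it was 0.999, 0.898 and 0.832 over gene counts and 0.858, 0.769 and 0.742 over all read pairs.

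**Figure D4:**
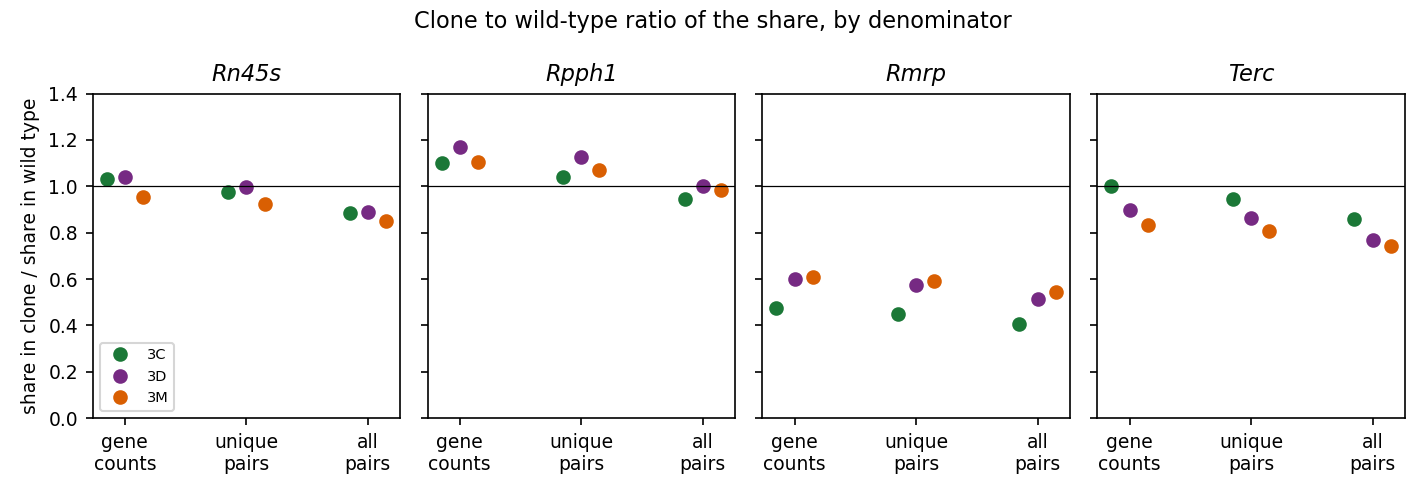
Share in each rescue clone divided by the share in wild type (vertical axis, 1 is equal) over gene counts, uniquely mapped read pairs and all read pairs, for each RNA. Points are single clones. *Rmrp* stays between 0.407 and 0.611, while *Rpph1* moves from between 1.10 and 1.17 to between 0.946 and 1.003.

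Of the *Rpph1*-like copies, *Rprl3* and *Rprl2* were above wild type in every clone, although neither passed the test. They were looked at after their values were seen. *Rprl3* had 5297, 6020 and 4745 counts in clones 3C, 3D and 3M and 1884 in wild type, a log2 difference of 1.91 (standard error 0.19, adjusted p = 0.11 in edgeR's quasi-likelihood test). *Rprl2* had 829, 989 and 828 counts in the clones and 421 in wild type, a log2 difference of 1.46 (standard error 0.16, adjusted p = 0.11). *Rprl1* had 10, 5 and 9 counts in the clones and 7 in wild type, a log2 difference of 0.58 with a standard error of 0.65. Per 100 counts of *Rpph1* there were 5.41, 5.37 and 4.26 counts of *Rprl3* in the clones and 1.54 in wild type. As the copies resemble *Rpph1* at over 90% of the aligned bases, the division of reads among them is uncertain, and whether the *Rprl3* and *Rprl2* counts include reads of *Rpph1* was not tested.

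*Rpph1* and *Rmrp* each start close to a protein-coding gene on the opposite strand. *Parp2*, which encodes a poly(ADP-ribose) polymerase, starts 125 bases from *Rpph1*. *Parp2* had 1170, 1419 and 1386 counts in clones 3C, 3D and 3M and 1387 in wild type, a log2 difference of 0.33 (standard error 0.10, adjusted p = 0.37 in edgeR's quasi-likelihood test). On the other side, *Ccnb1ip1*, which encodes a ubiquitin ligase of meiosis, had a log2 difference of 0.69 (standard error 0.12, adjusted p = 0.20). *Ccdc107*, 280 bases from *Rmrp*, had 67, 51 and 57 counts in the clones and 77 in wild type, a log2 difference of -0.0032 (standard error 0.28, adjusted p = 0.998). In CPM, wild type lay within the range of the clones for *Ccdc107*, which had few counts, but above all of them for *Rmrp*. *Sit1* on the other side of *Rmrp*, and *Fcgr1* and *BC107364* on the sides of *Terc*, had at most 1 count in a library. Matches on either strand counted, GENCODE transcripts of *Ccdc107* contain 75 of the 222 windows of 50 bases in *Rmrp*. Those of *Ccnb1ip1* contain 184 of the 270 in *Rpph1*. *Ccdc107* lies on the strand opposite to *Rmrp*, whereas *Ccnb1ip1* lies on the same strand as *Rpph1*, and the counts used here are strand-specific. The sources used here do not say whether the annotation behind the counts held these transcripts.

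The RefSeq promoter windows of *Ccdc107* (chr4:43493115-43493414 of GRCm38.p6, plus strand) and *Parp2* (chr14:50807666-50807965, plus strand) are shown because they hold most of the DNA between each pair of starts. The first lacks the 55 bases next to the *Rmrp* start, and the second includes the first 106 bases of *Rpph1* and 194 bases upstream of it. The capitals mark the octamer ATGCAAAT or its other strand ATTTGCAT.
Ccdc107: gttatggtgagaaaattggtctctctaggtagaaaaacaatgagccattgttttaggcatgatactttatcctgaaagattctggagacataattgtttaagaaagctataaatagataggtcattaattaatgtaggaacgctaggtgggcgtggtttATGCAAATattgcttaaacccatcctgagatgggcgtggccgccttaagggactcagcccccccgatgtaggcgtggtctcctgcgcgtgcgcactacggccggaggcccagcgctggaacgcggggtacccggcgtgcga
Parp2: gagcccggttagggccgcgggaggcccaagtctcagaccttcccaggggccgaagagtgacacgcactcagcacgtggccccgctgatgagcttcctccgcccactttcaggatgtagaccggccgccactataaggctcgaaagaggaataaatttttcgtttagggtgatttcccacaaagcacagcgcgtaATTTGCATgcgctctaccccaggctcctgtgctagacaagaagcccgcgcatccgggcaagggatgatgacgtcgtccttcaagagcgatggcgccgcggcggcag
The octamer is the motif of POU factors such as Pou2f1, and it lies 215 bases upstream of *Rmrp* and 89 bases upstream of *Rpph1*. It is closer to the starts that the windows are built on, 84 bases upstream of *Ccdc107* and 49 bases upstream of *Parp2*. It occurs on either strand in 570 of 32851 RefSeq promoter windows of 300 bases, or 1.74%. The letters TATAAA, which do not overlap it, occur in the *Ccdc107* window, 163 bases upstream of *Rmrp* and 138 bases upstream of *Ccdc107*. They occur in 13.6% of all windows. These matches describe the letters only.

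Across the proteins that bind, transcribe or process these RNAs, 94 genes of 6 lists were tested and edgeR's test called 0 of them at the adjusted p of 0.01. At an unadjusted p of 0.05, 6 were higher (6.38%) and 2 lower (2.13%), against 5.92% and 4.42% of all genes. DESeq2's test called 1, *Taf1d*. The median log2 difference of the 94 was -0.0029, and that of all genes tested was 0.0051.

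Beside *Rmrp* at -0.80 and *Rpph1* at 0.20, the 11 proteins of RNase P and RNase MRP had a median log2 difference of 0.13. The 11 ranged from -0.15 to 0.60. Of these, 2 were higher and 0 lower at an unadjusted p of 0.05, where 5.92% and 4.42% of all genes were. *Pop5*, on chromosome 5, had 354, 319 and 370 counts in clones 3C, 3D and 3M and 302 in wild type, a log2 difference of 0.60 (standard error 0.15, adjusted p = 0.30). *Rpp14*, on chromosome 14, had a log2 difference of 0.24 (adjusted p = 0.47). *Pop1*, the largest shared protein, had a log2 difference of -0.15 (adjusted p = 0.53), and *Rpp30* had 0.067 (adjusted p = 0.89).

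The 11 genes of the telomerase particle had a median log2 difference of -0.054. Of the 11, 0 passed an unadjusted p of 0.05, where 5.92% of all genes were higher and 4.42% lower. In all 3 clones, 2 of the 11 lay above wild type and 7 below it, against 28.7% and 28.4% of all genes. *Tert*, the reverse transcriptase that uses *Terc* as its template, had 416, 352 and 478 counts in the clones and 415 in wild type, a log2 difference of 0.40 (standard error 0.17, adjusted p = 0.51). Clones 3C and 3M were the higher ones, and *Tert* lies on chromosome 13, where the clone medians over 439 genes were 0.50 in 3C, 0.019 in 3D and 0.50 in 3M. *Dkc1*, which binds the H/ACA end of *Terc*, had a log2 difference of 0.071, *Nhp2* had -0.14 and *Nop10* had -0.15.

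The 7 genes of the 7SK particle and P-TEFb had log2 differences between -0.094 and 0.14 and a median of 0.020. Of the 7, 0 passed an unadjusted p of 0.05, where 5.92% of all genes were higher and 4.42% lower. The kinase *Cdk9* was at 0.081, its cyclin *Ccnt2* at -0.094, the inhibitor *Hexim1* at 0.0089, the 7SK-binding protein *Larp7* at 0.0038 and the capping enzyme *Mepce* at 0.079.

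The machinery that makes and processes the ribosomal RNA precursor had medians close to 0. The 15 tested genes of RNA polymerase I had a median of -0.020. *Taf1d*, a subunit of its selectivity factor on chromosome 9, had 3234, 3487 and 4028 counts in clones 3C, 3D and 3M and 3090 in wild type, a log2 difference of 0.61 (standard error 0.08, adjusted p = 0.16). The DESeq2 adjusted p of *Taf1d* was 0.00056. *Polr1a*, the largest subunit, was at -0.015, *Polr1c* at -0.17 and *Ttf1* at 0.13. The 20 processing factors had a median of -0.033. The exosome nuclease *Dis3*, on chromosome 14, had a log2 difference of 0.30 (adjusted p = 0.22), the small nucleolar particle protein *Rrp9* had -0.27 (adjusted p = 0.37) and the helicase *Ddx21* had -0.17 (adjusted p = 0.44).

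The 30 genes of RNA polymerase III, which transcribes *Rpph1* and *Rmrp*, had a median of -0.0075, with 2 genes higher and 0 lower at an unadjusted p of 0.05, beside 5.92% and 4.42% of all genes. The 2 genes were the subunits *Polr3d* at 0.30 (adjusted p = 0.34) and *Polr3a* at 0.20 (adjusted p = 0.46), both on chromosome 14. *Bdp1*, a subunit of its initiation factor on chromosome 13, was at 0.44 (adjusted p = 0.51), and *Snapc1*, of the complex that binds promoters of the *Rmrp* type, was at -0.12 (adjusted p = 0.76). Without clone 3D, 5 of the 94 genes (5.32%) passed the adjusted p of 0.01, beside 3.17% of all genes in that fit, all higher in the clones: *Taf1d*, *Bdp1*, *Heatr1*, *Polr3g* and *Utp15*. Of these, all but *Taf1d* lie on chromosome 13, where the median was 0.50 in each clone that was kept and 0.019 in 3D.

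**Figure D5:**
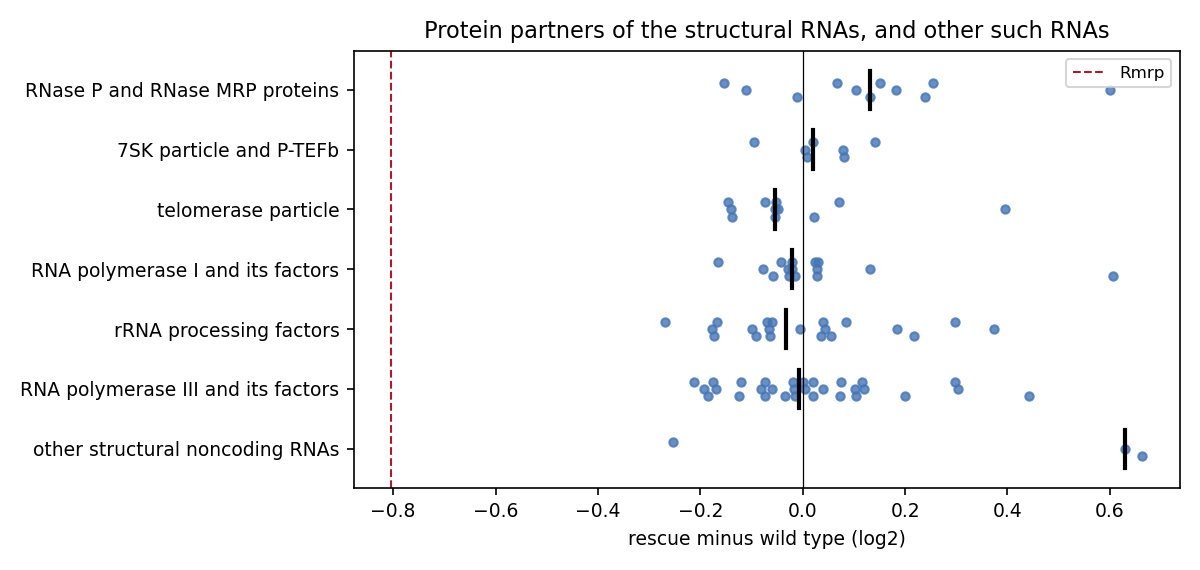
Rescue minus wild type (horizontal axis, edgeR log2 difference) of the tested genes of 7 lists. Blue points are genes, black bars are list medians, and the dashed red line is *Rmrp* at -0.80. No listed gene is as far below wild type as *Rmrp*.

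Few other structural RNAs could be assessed in these libraries. The level of those without a row was not measured, and only uniquely mapped pairs were counted. Of 32 listed, 9 have a row, 5 of these had 0 counts in every library, which allows up to 0.223 CPM in the shallowest library (3 counts), and 3 were tested. The minor spliceosome RNAs *Rnu11* and *Rnu12* had log2 differences of 0.66 (adjusted p = 0.63) and 0.63 (adjusted p = 0.56), from between 16 and 35 counts in a library, and *Rnu73b* had -0.25 (adjusted p = 0.84). Among short RNAs by RefSeq class, chosen after the values were seen, 68 snoRNAs were tested and their median log2 difference was -0.016. Of the 68, 0 passed an unadjusted p of 0.05, where 5.92% of all genes were higher and 4.42% lower. Many of these snoRNAs had few counts, so the test could miss a difference in them. Their summed level was between 187.6 and 213.7 CPM in the clones and 199.3 CPM in wild type. Of 5 guide RNAs of Cajal bodies, 2 were lower at an unadjusted p of 0.05, as were 4.42% of all genes. *Scarna10* had 135, 130 and 173 counts in clones 3C, 3D and 3M and 368 in wild type, a log2 difference of -0.94 (adjusted p = 0.19), and *Scarna6* had 379, 443 and 463 counts against 756, a log2 difference of -0.43 (adjusted p = 0.29). Neither of them was called, and of the 68 snoRNAs, 14 (20.6%) lay above and 18 (26.5%) below wild type in all 3 clones, against 28.7% and 28.4% of all genes.

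The genes with the pattern closest to each RNA were found by the distance of log2 CPM, minus each gene's own mean, over the 4 libraries. For *Rmrp* they were *Tdrd5*, *Zxdb* and *Pklr*, at distances of 0.070, 0.074 and 0.076. *Tdrd5* had 47, 68 and 71 counts in clones 3C, 3D and 3M and 148 in wild type, and *Zxdb* and *Pklr* had at most 28 in a library. For *Rpph1* they were *Clcn2*, *Zfp654* and *Adck2*, at distances of 0.017 to 0.024. For *Rn45s* they were *A430005L14Rik*, *Hspe1* and *Cops7a*, at 0.0087 to 0.011, and for *Terc* they were *Nudt4*, *Acot7* and *Porcn*, at 0.011 to 0.020. With 4 libraries, such likeness is a description.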

How the data were processed

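RNA-seq libraries of 3 Morc3 rescue clones and 1 wild-type culture were used. The authors aligned the 50-base read pairs to mm10 with STAR and deposited raw counts of uniquely mapped pairs per gene, without normalization. The sources used here do not give the gene annotation. The reverse-strand column was used, as the kit is directional. Rows that name no gene (unmapped, multimapping, unassigned and ambiguous pairs, together between 47.3% and 54.9% of all pairs) stayed out of library sizes and tests. Nothing says that the clones were cultured in replicate, so p-values measure the spread between clones.

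The test was edgeR 4.0.16 under R 4.3.3 (glmQLFit, glmQLFTest, TMM, filterByExpr) at a Benjamini-Hochberg adjusted p of 0.01. The standard error is the log2 difference over the square root of F. A prior of 0.1 CPM was added for differences of single clones. Intervals are exact binomial (95%). The steps were tested on simulated data. A fixed rule named the RNAs, the 3 genes of lowest p in each list, key subunits, the nearest genes and the 3 closest patterns. Outside this rule, *Rprl1*, *Rprl2*, *Rprl3*, *Scarna10*, *Scarna6*, *Rplp0*, *Supt16*, *Heatr1*, *Polr3g* and *Utp15* were named after the values were seen. The RNAs and lists were chosen with earlier results of these data known. Alternatives were the unstranded column, other scalings and filters, DESeq2 1.42.0, limma-voom (limma 3.58.1), edgeR's legacy method, other denominators and each clone left out. Positions and promoters came from RefSeq (GRCm38.p6), and transcripts from GENCODE on the same assembly.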

Additional observations from a re-analysis of the deposited data

How the results depend on the processing

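Of 80 values recomputed under an alternative, 65 stayed the same. For a log2 difference this means the same direction and side of the threshold, for a share ratio within 1 SD of the clones, and for a number of called genes an equal number. No member's log2 difference changed sign. No paired analysis was possible because wild type is a single library and shares only the number 1 with the clones. The number of called genes was 1, and 0 with at least 10 counts in every library, limma-voom or edgeR's legacy method, 65 with DESeq2's test, and with 1 clone left out it ranged from 0 to 420, which was reached without 3D. *Rmrp* was called with DESeq2 (log2 difference -0.80, adjusted p = 0.00035) and without clone 3D (-0.86, adjusted p = 0.00021), and ranged from -0.86 to -0.70 with 1 clone left out (adjusted p between 0.00021 and 0.72 over its 12 alternatives). The listed genes called numbered 0, 1 with DESeq2's test, 8 at an unadjusted p of 0.05, and 0 to 5 with 1 clone left out, again highest without 3D. The mean ratio of the clones' share to wild type was 1.13 for *Rpph1*, and 1.08 over uniquely mapped pairs and 0.978 over all read pairs. Over all read pairs it was 0.876 for *Rn45s* (1.01 over gene counts) and 0.790 for *Terc* (0.910). The larger share of unmapped pairs in the clones enters the denominator of all read pairs by construction, but not that of uniquely mapped pairs. The cause of the other differences was not tested. Scaling moved the median of all genes by less than 0.1 on the log2 scale. With 1 wild-type library, a difference that arose in that culture or its preparation cannot be told apart from one between the groups.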
